A study of Solanum lycopersicum with 14 samples.

Results

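Ripe tomato fruit was compared with green fruit of mature size in fruit of 2 cultivars of Solanum lycopersicum, to describe the genes gained and lost with ripening itself, apart from early growth. AC (Ailsa Craig) is an early English variety, and HG6-61 is a late-maturing line from China. Fruit was collected every 7 days from 7 to 49 days after flowering (DAF), with 1 RNA-seq library for each cultivar and time, and the fruits of 5 plants were mixed for each library. The green group held the 4 libraries at 21 and 28 DAF, whose label, mature green, is given to all fruit from 7 to 35 DAF, and the ripe group the 4 libraries at 42 DAF (labelled breaker, the first change of color) and 49 DAF (labelled ripening). Thus 8 of the 14 libraries entered the comparison, and the other 6 (7, 14 and 35 DAF) served only as a description. Neither cultivar carried a transgene, and no treatment was applied apart from the age of the fruit. The cultivars stand in for biological replicates, as the study treats them. Each group of 4 libraries thus mixed 2 ages and 2 genotypes. The spread in each group therefore includes the progress of ripening, and p-values measure the difference between groups against that spread.

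Tomato is a climacteric fruit. At the onset of ripening the fruit starts to make large amounts of the gas hormone ethylene from S-adenosylmethionine, by way of 1-aminocyclopropane-1-carboxylic acid (ACC), and ethylene in turn drives much of the later change. Chloroplasts turn into chromoplasts, which lose chlorophyll and fill with the red carotenoid lycopene, starch is converted to sugars, cell walls soften, and aroma compounds form.

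Levels were expressed as CPM, the reads of a gene per 1000000 counted reads of its library, so they compare libraries for 1 gene and not genes of different length. The 8 libraries held 1891668 to 6274456 counted reads, 16476385 in the green and 8783374 in the ripe group. Genes are given by tomato identifier, in which the digits after Solyc name the chromosome of the SL2.40 assembly. A symbol is that of the closest Arabidopsis gene in the deposited table, and the role given is the one known in Arabidopsis unless the study names the tomato gene. Library values are listed in a fixed order: AC at 21 and 28 DAF and HG6-61 at 21 and 28 DAF for green fruit, then AC at 42 and 49 DAF and HG6-61 at 42 and 49 DAF for ripe fruit. Differences are log2 fold changes, ripe over green, given as estimate ± SE with adjusted p-values (Benjamini-Hochberg) from edgeR's quasi-likelihood test over all tested genes. The AC library at 28 DAF stood apart from the other green libraries. It was the highest green library for 164 of the 244 genes called higher in ripe fruit, and the lowest for 585 of the 855 called lower. These genes were called from the same libraries, and the share over all tested genes was not counted.

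The labels were checked on markers first. Solyc03g031860.2, named phytoene synthase 1 by the study, makes the first carotenoid of the pathway and is a textbook gene of ripe tomato. It had 138, 708, 99.3 and 96 CPM in green and 2788, 3286, 3838 and 5191 CPM in ripe fruit. Every ripe library was above every green one, by a log2 fold change of 4.39 ± 0.76 (SE, adjusted p = 0.00441). Expansin A4, Solyc06g051800.2, which loosens cell walls, had 5.36, 134, 2.71 and 1.78 CPM in green and 264, 18, 827 and 86.5 CPM in ripe libraries. These ranges overlapped, since the AC library at 28 DAF was above both ripe libraries at 49 DAF, and the gene did not pass the test (4.26 ± 2.05, adjusted p = 0.16). An ACC oxidase of the study, Solyc07g049530.2, which releases ethylene from ACC, had 59, 1346, 124 and 220 CPM in green and 289, 1389, 687 and 1647 CPM in ripe libraries. Here the AC library at 28 DAF reached the level of the ripe ones, and the difference did not pass the test (1.71 ± 1.0, adjusted p = 0.24).

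More genes were called lower than higher in the ripe group. Of 26397 genes in the table, 14595 had enough reads to be tested. A gene was called where its adjusted p was under 0.01 and its log2 fold change beyond 2, the thresholds of the study. By that rule 1099 genes (7.53% of those tested) were called, 244 higher (1.67%) and 855 lower (5.86%) in ripe fruit, so 77.8% of the calls were losses. Counts of called genes in the lists below are to be read beside these shares. The median log2 fold change over all tested genes was -0.03. The 4 libraries of one group all lay beyond the 4 of the other for 215 of the genes called higher, a separation that 7.25% of all tested genes showed in that direction, and for 853 of the genes called lower (21.1% of all tested genes). No read was left in ripe fruit for 47 of the genes called lower, while 4 of the genes called higher had no read in green fruit. Without the AC library at 28 DAF 1168 genes were called, 300 higher and 868 lower. Leaving out AC at 21 DAF, HG6-61 at 21 DAF, HG6-61 at 28 DAF or AC at 42 DAF lowered the count by over 1.5 times, to 536, 413, 542 and 594.

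**Figure D1:**
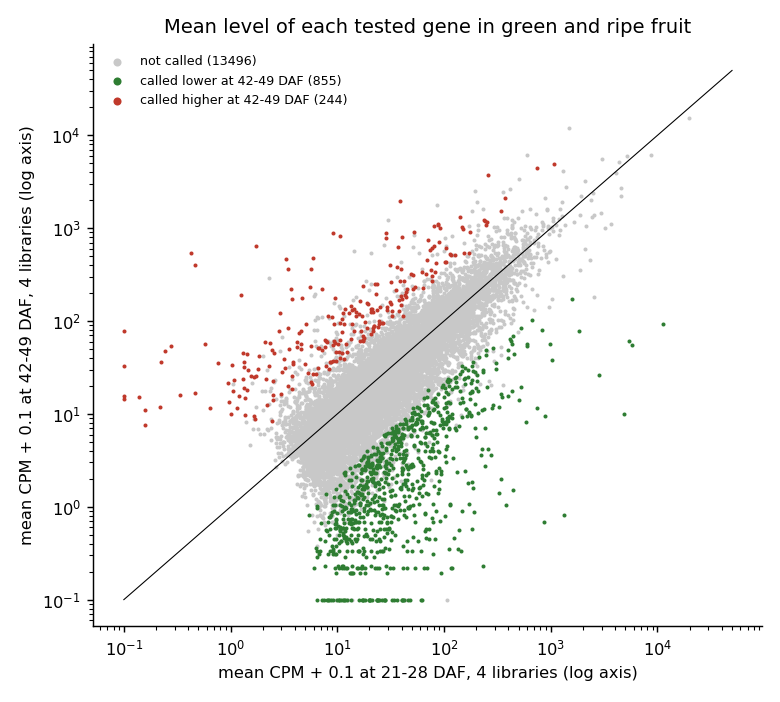
Mean CPM + 0.1 of each tested gene over the 4 green libraries (21-28 DAF, x axis) and the 4 ripe libraries (42-49 DAF, y axis), both on log axes, with 1 point per gene and the line of equal level. The 855 genes called lower (green points) form a wide band below the line that reaches down to genes with no read in ripe fruit, and the 244 called higher (red points) lie above it.

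The steepest gains were in genes that green fruit hardly used. Solyc02g067750.2 is closest to SABP3, a chloroplast carbonic anhydrase, which interconverts carbon dioxide and bicarbonate. It had no read in any green library and 53.9, 99, 43.9 and 117 CPM in the ripe ones, at least 441-fold higher against a floor of 3 reads over the green group (adjusted p = 0.000984). Solyc10g080210.1, closest to QRT2, a polygalacturonase that cuts the pectin chain between cells, had 0, 0, 0.797 and 0.509 CPM in green and 299, 7.13, 1492 and 375 CPM in ripe libraries. All ripe libraries were above all green ones (10.68 ± 1.41, adjusted p = 0.0016), though the level in AC had already dropped at 49 DAF. A serine decarboxylase, emb1075 in Arabidopsis, is the closest relative of Solyc08g066240.2. That gene had 0, 0.474, 0.478 and 0.509 CPM in green against 99.4, 412, 473 and 607 CPM in ripe fruit, again with no overlap (10.02 ± 0.68, adjusted p = 0.000308). The cytochrome P450 gene Solyc03g112040.1, closest to CYP71A25, had 3 reads over the green group, all in AC at 28 DAF, and 84.1, 54.8, 6.6 and 72.2 CPM in the ripe libraries. Its pooled ratio was 295, with a 95% interval from counting alone of 100 to 1433 (adjusted p = 0.00136).

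Several steep gains were uneven among the ripe libraries. Solyc00g060810.2, MLP-like protein 43 in the study, had 0, 23, 0 and 0.255 CPM in green and 1130.2, 282, 193 and 285 CPM in ripe libraries (7.40 ± 1.31, adjusted p = 0.00484). Nearly all of its green reads were in AC at 28 DAF. Solyc01g099040.2, closest to the Arabidopsis locus AT5G03980, had 0, 4.03, 0.638 and 0 CPM in green and 124, 33, 523 and 74.1 CPM in ripe libraries (7.15 ± 1.3, adjusted p = 0.00531). A protease inhibitor gene of the study, Solyc08g080630.2, was higher in the later of the ripe libraries. It had 0.487, 1.18, 0 and 0.255 CPM in green libraries and 6.87, 126, 10.4 and 83.6 CPM in ripe ones, so it was higher at 49 than at 42 DAF in both cultivars (7.13 ± 1.22, adjusted p = 0.00425). These 3 genes lost the call in 4 to 6 of the 8 fits that left out 1 library, with adjusted p up to 0.0288, whereas the carbonic anhydrase, the polygalacturonase, the decarboxylase and the P450 gene kept it in all 8.

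The 6 called genes with the largest gain in mean CPM included genes of alcohol, sugar and carotenoid metabolism and of the stress response. Solyc06g059740.2 is closest to ATADH1, an alcohol dehydrogenase, an enzyme that interconverts aldehydes and alcohols. Its level was 844, 1635, 853 and 925 CPM in green and 4754, 5830.1, 4064 and 4906 CPM in ripe libraries, without overlap (2.42 ± 0.36, adjusted p = 0.00242). Solyc03g083910.2 is closest to the vacuolar invertase AT1G62660, which splits sucrose into glucose and fructose. It had 702, 1669.5, 334 and 292 CPM in green and 5566, 3990.3, 3949 and 4089.5 CPM in ripe fruit (3.05 ± 0.49, adjusted p = 0.00333). The universal stress protein gene Solyc01g100370.2 (AT3G62550) had 245, 853, 143 and 254 CPM in green and 2088, 4054, 1083 and 1198 CPM in ripe libraries (2.71 ± 0.47, adjusted p = 0.00436). For all of these every ripe library was above every green one, and the AC library at 28 DAF was the highest of the green ones. The SAHH1 gene described below gained more CPM but was not called. The others among the 6 were phytoene synthase 1, the small heat shock protein gene Solyc03g113930.1 described below, and Solyc07g047800.2 (AT3G01980), with a log2 fold change of 2.45 ± 0.49 (adjusted p = 0.00757). Each of the 6 lost the call in 2 to 7 of the 8 fits without 1 library, with adjusted p up to 0.0349.

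Of the 18 tested carotenoid genes of the study, phytoene synthase 1 was the only one called. The median of the list was -0.07, against -0.03 over all tested genes. Its paralog Solyc02g081330.2 had 64.8, 47.8, 52.3 and 40.5 CPM in green and 68.7, 43.5, 33.5 and 20 CPM in ripe fruit, ranges that overlapped. The desaturases that turn phytoene toward lycopene showed the same: Solyc03g123760.2 (PDS3) had a log2 fold change of 0.03 ± 0.36 and Solyc01g097810.2 (ZDS) one of 0.37 ± 0.30. The carotenoid isomerase gene Solyc10g081650.1 (CRTISO) had all ripe libraries above the green ones, at a log2 fold change of 0.81 ± 0.22 that did not pass the test (adjusted p = 0.0285). On the far side of lycopene, the cyclase gene Solyc04g040190.1 (LYC), whose enzyme turns lycopene into beta-carotene, had 8.77, 8.76, 14.8 and 14 CPM in green and 2.11, 4.88, 0.472 and 0.475 CPM in ripe libraries. These ranges lay apart but the adjusted p was 0.0384 (-2.39 ± 0.71). The hydroxylase genes for lutein, Solyc04g051190.2 (LUT5) and Solyc10g083790.1 (LUT1), were lower in every ripe library than in every green one, with adjusted p of 0.0219 and 0.0366. The epsilon-cyclase gene Solyc12g008980.1 (LUT2), which leads to lutein, had too few reads to be tested, 122 in green and 2 in ripe fruit.

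Of the ethylene synthesis genes, 1 ACC synthase relative was higher and another lower. Solyc01g095080.2 is closest to AT-ACC2, an ACC synthase, the enzyme that makes ACC and sets the rate of ethylene production. It had 0, 5.21, 1.12 and 0.255 CPM in green and 675, 1035, 560 and 331 CPM in ripe libraries, a complete separation (8.79 ± 0.81, adjusted p = 0.000514), and the call held without any 1 library. A second synthase relative, Solyc08g008100.2 (ATACS6), moved the opposite way. Its level was 247, 131, 47.3 and 89.9 CPM in green and 50.2, 22.9, 5.66 and 9.03 CPM in ripe fruit (-2.54 ± 0.41, adjusted p = 0.00327). The ranges overlapped between the cultivars but not within either. A further synthase relative, Solyc05g050010.2 (AT-ACS1), had too few reads to be tested, with 1.46, 1.18, 2.07 and 0 CPM in green and 10.6, 1.88, 85.8 and 26.1 CPM in ripe libraries. The second synthase relative lost its call in 5 of the 8 fits without 1 library, with adjusted p up to 0.0154. These were the only calls among 14 tested ethylene synthesis genes, whose median log2 fold change was 0.02. Neither of the other ACC oxidase relatives with the highest levels was called: Solyc07g026650.2 (ATACO1) had a log2 fold change of 2.76 ± 0.95 and Solyc02g081190.2 (EFE) one of -1.57 ± 0.55.

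Among 23 tested genes of ethylene perception and signalling, 3 were higher and 1 lower, with a median of 0.69. Solyc09g075440.2 is closest to ERS1, an ethylene receptor, a protein that keeps the response off until ethylene binds. It had 87.2, 164, 71.2 and 86.1 CPM in green and 233, 278, 460 and 778 CPM in ripe libraries (2.21 ± 0.45, adjusted p = 0.00885). Solyc12g009560.1 and Solyc07g008250.2 are both closest to FBL6, known as EBF1, an F-box protein that marks the ethylene transcription factor EIN3 for destruction. The first had 20.9, 67.7, 40.3 and 48.4 CPM in green and 149, 122, 206 and 340 CPM in ripe fruit (2.31 ± 0.41, adjusted p = 0.0047), and the other rose by 2.07 ± 0.27 (adjusted p = 0.00147). All 3 were higher in every ripe library. A receptor relative of EIN4, Solyc05g055070.2, was also higher in every ripe library but missed the thresholds (1.77 ± 0.40, adjusted p = 0.0132). The 3 genes closest to EIN3 itself lay between log2 fold changes of -0.48 and 0.63, and none was called. The member called lower was Solyc04g014530.1 (ERF1), an ethylene response factor, with 7.8, 6.16, 9.88 and 15 CPM in green and 3 reads over the ripe group. The receptor gene lost its call in 7 and the first F-box gene in 6 of the 8 fits without 1 library, with adjusted p up to 0.0425.

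Transcription factors were called in both directions. Of 611 tested factors from the study's list, 21 (3.44%) were higher and 41 (6.71%) lower, beside 1.67% and 5.86% over all tested genes. Solyc06g069430.2 is closest to FUL, a MADS-box factor of fruit development. Its level rose from 19, 43.3, 31.7 and 33.4 CPM in green to 235, 241, 227 and 355 CPM in ripe libraries (3.24 ± 0.32, adjusted p = 0.000647). No ripe library came near a green one, and the call held without any 1 library. The relatives of FLO2, known as APETALA2, diverged. Solyc03g044300.2 rose, from 36.5, 49.3, 26.6 and 29.8 CPM to 148, 93, 421 and 199 CPM (2.68 ± 0.46, adjusted p = 0.00435), and Solyc02g093150.2 fell (-2.12 ± 0.30, adjusted p = 0.00205). Solyc06g064840.2, closest to STK, a MADS-box factor of ovules and seeds, fell as well (-2.33 ± 0.36, adjusted p = 0.00296). These 4 were the called members among 18 tested relatives of fruit regulators (MADS, NAM-type NAC, SPL3, AP2 and GLK), whose median was -0.46. The last 3 lost their call in 3 or 4 of the 8 fits without 1 library, with adjusted p up to 0.0236.

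The ERF and DREB family, which holds factors of ethylene, cold and low oxygen responses, gave more gains than losses. Of 38 tested members 8 were higher (21.1%) and 1 lower (2.63%), beside 1.67% and 5.86% of all tested genes, with a median of 0.67. Solyc03g026280.2, closest to DREB1A, a factor of the cold response, had 84.3, 74.4, 19.1 and 16.5 CPM in green and 461, 629, 108 and 81.7 CPM in ripe libraries (2.81 ± 0.25, adjusted p = 0.000509). The cultivars differed in level, so that the ranges overlapped, but within each cultivar the ripe libraries were above the green ones. Solyc04g078640.1 (DEAR2) rose by 3.39 ± 0.41 (adjusted p = 0.00117) and Solyc09g075420.2 (HRE2, a factor of low oxygen responses) by 2.29 ± 0.43 (adjusted p = 0.00584). HRE2 lost its call in 6 of the 8 fits without 1 library (adjusted p up to 0.0258), and DREB1A and DEAR2 in none. Among HD-Zip and other homeobox factors 2 of 32 were higher and 5 lower. Both gains were neighbouring identifiers closest to HDG8, of a family active in the epidermis. Solyc09g066070.2 had 0.487, 1.42, 0 and 0.764 CPM in green and 42.3, 60.8, 10.4 and 27.6 CPM in ripe libraries, with no overlap (5.84 ± 0.66, adjusted p = 0.00104), and Solyc09g066060.1 rose by 4.93 ± 0.59. The losses were led by the genes closest to ATHB13, Solyc05g007180.2 (-5.01 ± 0.76) and Solyc02g087840.2 (-7.04 ± 0.65). The median of the family was -0.19.

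The remaining factor families are read beside 1.67% higher and 5.86% lower over all tested genes. Of 39 WRKY factors, known from defense, 2 were higher and 2 lower (5.13% each, median -0.09). Solyc01g079260.2 (WRKY23) rose by 2.42 ± 0.40 (adjusted p = 0.00382) and Solyc04g072070.2 (WRKY51) fell by 5.34 ± 0.78 on the log2 scale (adjusted p = 0.00232). Of 28 NAC factors 2 were higher (7.14%) and 1 lower (3.57%, median 0.09). The loss was Solyc10g005010.2, closest to NST1, a switch for thickened secondary walls, which had 23.9, 20.8, 7.17 and 27.2 CPM in green fruit and no read in any ripe library, at least 51.4-fold lower against a floor of 3 reads over the ripe group (adjusted p = 0.00369). Among 20 MYB factors 1 was higher (5%) and 5 lower (25%, median -1.53). The MYB losses included Solyc07g053230.2 (MYB107, a factor of suberin formation), at -3.80 ± 0.48, and Solyc01g102340.2 (MYB61), at -2.50 ± 0.45. At 7 and 14 DAF MYB107 had at most 1.57 CPM and NST1 at most 3.92 CPM. Both were thus low before 21 DAF, as were the seed genes described below. Of 18 heat shock factors only Solyc09g065660.2 (HSFA6B) was called, higher by 3.92 ± 0.67 (adjusted p = 0.00424), and the median of that family was 1.38. Without 1 library MYB61 and HSFA6B lost their call in 5 of the 8 fits, WRKY23 in 3 and NST1 in 2, with adjusted p up to 0.0227.

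Small heat shock proteins, which hold unfolding proteins in solution, were the list with the highest share of gains. Of 19 tested members 10 were higher (52.6%, beside 1.67% of all tested genes), none was lower, and the median log2 fold change was 3.2. Solyc03g113930.1, closest to ATHSP22.0, had 15.1, 105, 18.6 and 16.8 CPM in green and 3728, 765, 3186 and 98.8 CPM in ripe libraries (6.06 ± 1.19, adjusted p = 0.00729). The ranges overlapped, since HG6-61 at 49 DAF was below AC at 28 DAF. The same library was the lowest of the ripe ones for Solyc09g015000.2 (HSP17.4), with 49.7, 181, 64.5 and 56 CPM in green and 1789, 1662, 941 and 82.7 CPM in ripe fruit (3.70 ± 0.74, adjusted p = 0.00806). Both genes lost their call in at least 5 of the 8 fits without 1 library. The 22 genes of the list in the table summed to 1810, 4097, 1073 and 1130 CPM in green libraries. In ripe libraries the sum was 28521, 13067, 25995 and 1800 CPM. HG6-61 at 49 DAF was thus below both green AC libraries, though above both green HG6-61 ones. At 35 DAF the sum was 39571 CPM in AC, above every ripe library, and 14100 CPM in HG6-61. Phytoene synthase 1 was at 91.7 CPM in HG6-61 at that age. Of the 32 larger chaperones (HSP70, HSP90 and HSP100) 5 were higher and none lower, with a median of 1.18. Solyc11g020040.1 (HSC70-7, of the chloroplast) had 91.6, 113, 60.1 and 92.4 CPM in green and 1408, 541, 536 and 329 CPM in ripe libraries. All ripe values were above all green ones (3.09 ± 0.41, adjusted p = 0.0016), and Solyc11g066100.1 (HSP70) rose by 3.23 ± 0.39 (adjusted p = 0.00116).

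Of 18 tested lipoxygenase, alcohol and aroma genes 4 were higher and 1 lower, with a median of 2.03. Beside the alcohol dehydrogenase above, Solyc12g088220.1 (BCAT-2, a transaminase of branched-chain amino acids) had 0, 14.4, 0.319 and 0 CPM in green and 203, 125, 176 and 195 CPM in ripe libraries (6.32 ± 1.21, adjusted p = 0.00659). Solyc10g076510.1 (AT4G33070, a pyruvate decarboxylase) rose by 2.47 ± 0.52 (adjusted p = 0.00987), a call that none of the 8 fits without 1 library kept (adjusted p up to 0.0405). The transaminase kept its call in 2 of these fits, as did LOX5 below. The one loss was Solyc09g075860.2 (LOX5), a lipoxygenase, at -2.68 ± 0.49. Of 67 cytochrome P450 genes 10 were higher (14.9%) and 18 lower (26.9%), beside 1.67% and 5.86% of all tested genes, with a median of -0.64. The 184 genes of that list in the table summed to 2750 to 4007 CPM in green and 4038 to 6150 CPM in ripe libraries. The gains included the relatives of CYP94B1 and CYP94C1, which oxidise and so inactivate the hormone jasmonoyl-isoleucine. Solyc10g083400.1 (CYP94C1) had 9.26, 2.84, 9.88 and 6.11 CPM in green and 366, 212, 157 and 146 CPM in ripe libraries, far apart (5.11 ± 0.50, adjusted p = 0.000662). Solyc09g066150.1 (CYP94B1) rose by 3.45 ± 0.38 (adjusted p = 0.000984), and both held in all 8 fits without 1 library.

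Among 32 glutathione S-transferases, which attach glutathione to reactive compounds, 3 were higher and 2 lower (median 0.55). Solyc07g056420.2 (GSTU25) had 129, 294, 76 and 87.1 CPM in green and 873, 1043, 921 and 1292 CPM in ripe fruit (3.17 ± 0.44, adjusted p = 0.00186). The relatives of GSTU19 diverged. Solyc07g056490.2 fell by 2.18 ± 0.31 on the log2 scale. Solyc12g011310.1 rose from 0.487, 12.8, 0.319 and 0.764 CPM to 371, 270, 226 and 9.03 CPM (6.51 ± 1.17, adjusted p = 0.00501). Its ranges overlapped, and it kept its call in 4 of the 8 fits without 1 library. Of 18 pathogenesis-related and chitinase genes 1 was higher and 1 lower (median 1.27). The gain was Solyc08g080640.1 (OSM34, an osmotin), with 0.487, 18.2, 0.478 and 3.06 CPM in green and 109, 426, 149 and 786 CPM in ripe libraries (6.46 ± 1.25, adjusted p = 0.00695). The loss, the chitinase relative Solyc03g116230.2 (PR3), was high in green AC fruit and low in green HG6-61 fruit, with 1062, 1294, 5.58 and 4.07 CPM in green and 27.5, 5.25, 0 and 0 CPM in ripe libraries. The osmotin gene lost its call in 6 of the 8 fits without 1 library (adjusted p up to 0.033), and the chitinase gene in none. Of 44 calcium-dependent kinase and calmodulin genes 2 were higher, among them Solyc02g094000.1 (CML38), at 2.12 ± 0.40, and the median was 0.08. CML38 lost its call in 7 of the 8 fits without 1 library, with adjusted p up to 0.0254. In the ribosomal protein list 3 of 51 members were higher and none lower (median -0.15). All 3 belong to the mitochondrion in Arabidopsis. Solyc11g056480.1 (RPS19) had 5.85, 7.11, 10.7 and 14 CPM in green and 119, 35.3, 431 and 122 CPM in ripe libraries (4.25 ± 0.55, adjusted p = 0.00151), Solyc00g022110.2 (RPL2) rose by 4.84 ± 0.55, and Solyc00g021640.2 (RPS4) by 4.04 ± 0.63. RPS4 lost its call in 4 of the 8 fits without 1 library. RPL2 and RPS4 are encoded by the mitochondrial genome in Arabidopsis.

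Hormone lists other than ethylene held single gains. Solyc09g065850.2, closest to IAA4, a repressor of auxin responses, had 73.6, 79.4, 27.4 and 25.2 CPM in green and 482, 521, 150 and 107 CPM in ripe libraries. Ripe AC libraries were the highest, and ripe HG6-61 libraries exceeded all green ones by a smaller margin (2.72 ± 0.24, adjusted p = 0.000511). The other 6 called genes among 46 auxin genes were losses, and the median was -0.96. Solyc08g082630.2 (ARF9, an auxin response factor) had 56.5, 64.4, 20.7 and 36.7 CPM in green and 3 reads over the whole ripe group, a pooled ratio of 118 (95% counting interval 40.1 to 572, adjusted p = 0.000421). Solyc11g069190.1 (ARF4) was at -3.93 ± 0.53 and Solyc01g097290.2 (IAA16) at -6.44 ± 1.01. In abscisic acid synthesis and breakdown 1 of 13 genes was higher and 2 were lower (median -0.74). The gain was Solyc08g075320.2, closest to CYP707A1, which breaks abscisic acid down, at 4.70 ± 0.91 (adjusted p = 0.00688). One loss was Solyc08g016720.1, closest to STO1, known as NCED3, which commits carotenoids to abscisic acid, at -2.84 ± 0.55 (adjusted p = 0.00686). Both lost their call in 6 or 7 of the 8 fits without 1 library. Of 25 abscisic acid signalling genes only Solyc03g006960.2 (AHG1, a phosphatase that blocks the response) was called, higher by 2.97 ± 0.40 (list median -0.09). Of 12 gibberellin genes 1 was higher, the receptor relative Solyc09g074270.2 (GID1B) at 2.02 ± 0.30, and 2 were lower, both closest to the synthesis gene KAO2 (median 0.24).

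**Figure D2:**
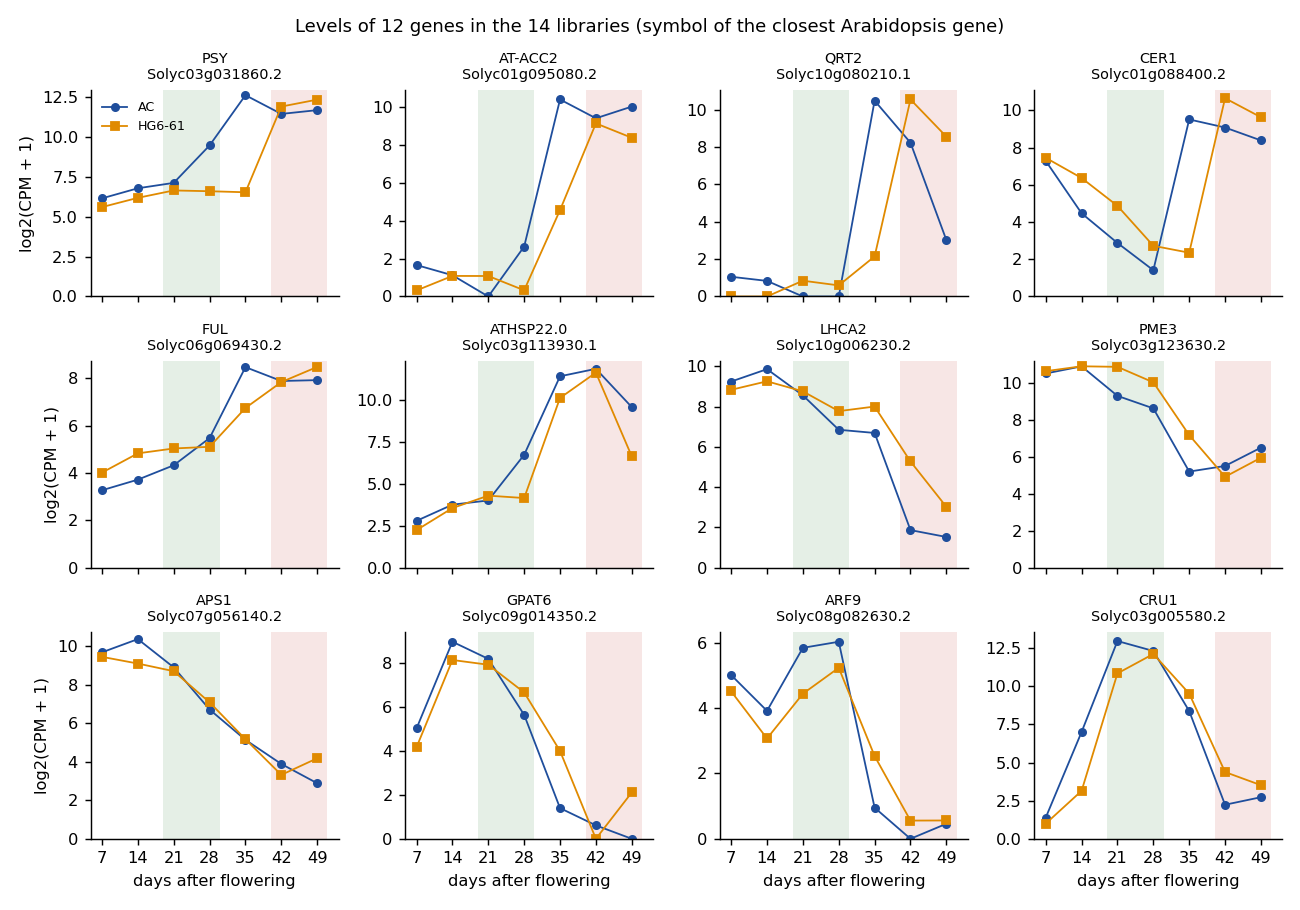
Levels of 12 genes as log2(CPM + 1) in the 14 libraries by days after flowering, 1 panel per gene, with AC in blue circles and HG6-61 in orange squares and the green and ripe stages of the comparison shaded. The first 6 panels, PSY to ATHSP22.0, show genes higher in ripe fruit, such as PSY at 6288 CPM in AC and 91.7 CPM in HG6-61 at 35 DAF, and the other 6 show genes lower in ripe fruit.

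Genes of photosynthesis had the highest share of losses among the lists. Of 44 tested genes of the photosystems and electron transport 25 were lower (56.8%, beside 5.86% of all tested genes) and none higher, with a median of -3.16. The summed level of the 77 genes of that list in the table was 5036, 1931, 4304 and 2387 CPM in green and 1701, 551, 1115 and 386 CPM in ripe libraries, so the green AC and HG6-61 libraries at 28 DAF were already the lowest of their group. Solyc10g006230.2 (LHCA2, an antenna protein of photosystem I) had 377, 114, 432 and 218 CPM in green and 2.64, 1.88, 37.7 and 7.13 CPM in ripe libraries (-4.83 ± 0.80, adjusted p = 0.00368). The oxygen-evolving proteins went down too, Solyc02g090030.2 (PSBO2) at -4.39 ± 0.84 and Solyc07g044860.2 (PSII-P) at -2.14 ± 0.37. In the Calvin cycle, which fixes carbon dioxide, 12 of 25 genes were lower and none higher (median -3.29). Solyc10g086580.1 (RCA, the activase of rubisco) had 169, 97.4, 184 and 157 CPM in green against 11.1, 10.1, 25.5 and 7.13 CPM in ripe fruit, with wide separation (-3.29 ± 0.39, adjusted p = 0.00115). The activase kept its call in all 8 fits without 1 library, while LHCA2, PSBO2 and PSII-P lost theirs in 4, 6 and 6 of them, with adjusted p up to 0.0237.

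Of 24 chlorophyll synthesis genes 2 were lower (8.33%, beside 5.86% of all tested genes) and none higher (median -0.66). They were Solyc12g013710.1 (PORB, which reduces protochlorophyllide), with 312 reads in green and 4 in ripe fruit (adjusted p = 0.00794), and Solyc06g073290.1 (GUN4), at -2.60 ± 0.49 (adjusted p = 0.00639). Both lost the call in 6 of the 8 fits without 1 library. None of 8 tested chlorophyll breakdown genes was called by edgeR, though 5 had an unadjusted p under 0.05 and DESeq2 called 1 higher and 1 lower, and the median was -0.05. Solyc08g080090.2 (NYE1, the stay-green protein that starts chlorophyll breakdown) had 20, 27.7, 10 and 17.8 CPM in green and 221, 5.25, 182 and 58.4 CPM in ripe libraries. In 3 of the 4 ripe libraries it was above all green ones, but AC at 49 DAF was below them all (2.88 ± 0.88, adjusted p = 0.0425). Without that library the gene was called, the only 1 of the 8 such fits in which it was. Solyc07g024000.2 (NYC1, which reduces chlorophyll b) had overlapping ranges (0.50 ± 0.31), and Solyc06g053980.2 (CLH2, a chlorophyllase) was lower in every ripe library but missed the threshold (-3.45 ± 0.75, adjusted p = 0.0115).

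**Figure D3:**
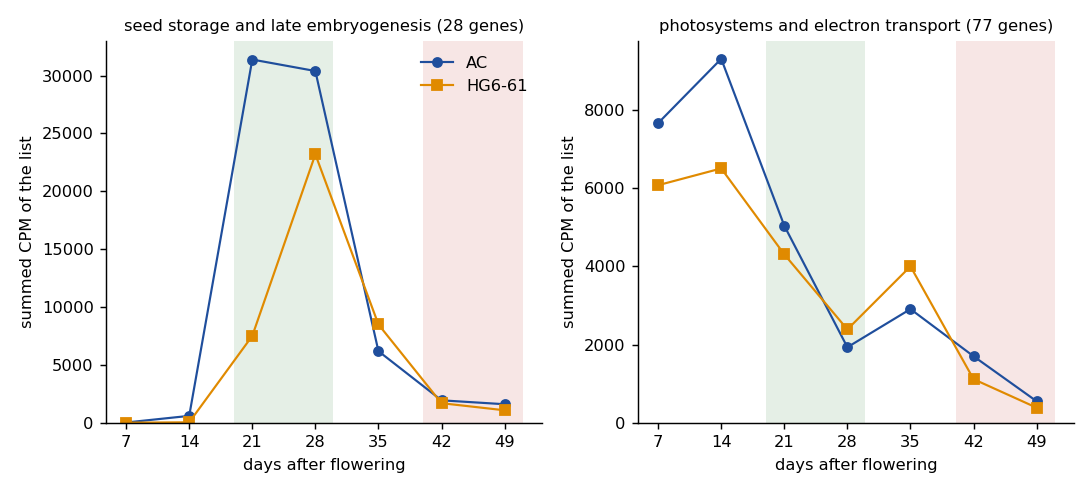
Summed CPM of the seed storage and late embryogenesis list (28 genes, left) and of the photosystem list (77 genes, right) by days after flowering, with 1 point per library, AC in blue circles, HG6-61 in orange squares and the green and ripe stages shaded. The seed list peaks inside the green stages, at up to 31387 CPM, and is at most 1941 CPM in ripe fruit, while the photosystem list is highest at 7 and 14 DAF.

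Called starch and sugar genes were mostly losses, as were 77.8% of all calls. Of 35 genes of starch synthesis and breakdown 11 were lower (31.4%, beside 5.86% of all tested genes) and none higher (median -1.0). Solyc07g056140.2 (APS1) is closest to the small subunit of ADP-glucose pyrophosphorylase, which makes the building block of starch. It had 475, 104, 414 and 134 CPM in green and 13.7, 6.38, 8.96 and 17.1 CPM in ripe libraries (-4.40 ± 0.60, adjusted p = 0.00183). The relatives of the starch phosphorylase AT3G29320 fell with it, Solyc03g065340.2 at -3.28 ± 0.42 and Solyc05g012510.2 at -4.87 ± 0.85. Of 14 genes of sucrose metabolism and transport 1 was higher, the vacuolar invertase, and 2 were lower (median -0.96). Both losses were sucrose-phosphate synthases, Solyc11g045110.1 (ATSPS4F) at -3.0 ± 0.49 and Solyc09g092130.2 (SPS3F) at -4.32 ± 0.55. The 22 genes of the sucrose list in the table summed to 2576, 3026, 3403 and 1822 CPM in green libraries. In ripe libraries the sum was 6400, 6375, 4754 and 6689 CPM, with no overlap. The invertase alone held 5566, 3990.3, 3949 and 4089.5 CPM of the ripe sums. In the GABA shunt and organic acid enzymes 3 of 11 genes were lower and none higher (median -1.01). These were the glutamate decarboxylases Solyc11g011920.1 (GAD1, -2.65 ± 0.38) and Solyc01g005000.2 (GAD4, -5.17 ± 0.57), which make GABA, and the GABA transaminase Solyc12g006470.1 (POP2, -5.59 ± 0.97), which removes it. The summed level of this list did not follow its calls. It was 3287, 2978, 2869 and 2560 CPM in green and 1471, 6345, 2284 and 5986 CPM in ripe libraries. In both cultivars the earlier ripe library was below every green one and the later ripe library above every green one. POP2 lost its call in 5 of the 8 fits without 1 library, and ATSPS4F and Solyc05g012510.2 in 4, with adjusted p up to 0.0227. The phosphoenolpyruvate carboxylase Solyc07g062530.2 (PPC3), which feeds carbon into organic acids, had 2706, 986, 2066 and 1558 CPM in green and 71.9, 13.1, 107 and 121 CPM in ripe libraries (-4.50 ± 0.64, adjusted p = 0.00199).

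Calls among pectin enzymes and expansins were losses except for the polygalacturonase above, beside the 77.8% of all calls that were losses. Pectin methylesterases, which prepare pectin for cutting, were lower in 3 of 7 tested genes (median -1.57). Solyc03g123630.2 (PME3) had 629, 393, 1871 and 1046 CPM in green and 44.4, 89.3, 29.2 and 60.8 CPM in ripe fruit (-3.75 ± 0.59, adjusted p = 0.00299), with no overlap. Pectate lyases, which cleave pectin by elimination, were lower in 4 of 8 (median -3.12). Solyc05g014000.2 (AT1G67750) had 156, 6.63, 324 and 108 CPM in green and 0, 0.375, 0.472 and 2.38 CPM in ripe libraries (-7.32 ± 1.15, adjusted p = 0.00299). The summed level of the list did not follow its calls. It was 490, 817, 584 and 270 CPM in green and 625, 115, 1649 and 1246 CPM in ripe libraries, highest in ripe HG6-61. The gene with the most reads in ripe fruit, Solyc03g111690.2 (AT4G24780), named here after its values were seen, had 94.5, 678, 16.6 and 18.3 CPM in green and 543, 87, 1555 and 1179 CPM in ripe libraries and did not pass the test (3.16 ± 1.85, adjusted p = 0.241). Of 12 polygalacturonases 1 was higher and 2 were lower (median -0.49), and Solyc05g005550.2, closest to PG2, a non-catalytic polygalacturonase subunit, was among the steepest losses of all. It had 74.5, 21.8, 111 and 266 CPM in green fruit and 1 read over the ripe group, a pooled ratio of 1059 (95% counting interval 190 to 41859, adjusted p = 0.000488). Expansins were lower in 2 of 7 (median -1.70), with Solyc06g076220.2 (EXPA6) at -3.93 ± 0.51 and Solyc02g088100.2 (EXPA10) at -3.94 ± 0.68. The summed level of the expansin list was 690, 560, 832 and 603 CPM in green and 553, 1629, 982 and 436 CPM in ripe libraries, and that of the polygalacturonase list 480, 329, 486 and 420 CPM and 561, 206, 1862 and 628 CPM. Both pairs of ranges overlapped. Leaving out 1 library ended the call of PME3 in 2, of the pectate lyase in 4 and of EXPA10 in 5 of the 8 fits, with adjusted p up to 0.0219.

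In the 4 lists for hemicellulose and cellulose described next most calls were losses, as were 77.8% of all calls. Single gains fell in the xyloglucan endotransglucosylase and the synthesis lists. Of 18 xyloglucan endotransglucosylases 1 was higher, Solyc08g076080.2 (XTR4) at 4.01 ± 0.73, and 2 were lower (median 0.47), among them Solyc01g099630.2 (XTH5) at -5.60 ± 0.79. The 31 genes of that list in the table summed to 745 to 1042 CPM in green and 1270 to 1763 CPM in ripe libraries. Of 12 endoglucanases and mannanases 6 were lower and none higher (median -2.78). The 25 genes of that list in the table summed to 1013, 651, 1266 and 872 CPM in green libraries. In ripe libraries the sum was 399, 84.4, 1321 and 144 CPM, so the ranges overlapped. Solyc05g005080.2 (TSD1, known as KORRIGAN, an endoglucanase needed to make cellulose) had 394, 192, 635 and 507 CPM in green and 5.81, 17.3, 7.55 and 40.4 CPM in ripe libraries (-4.39 ± 0.57, adjusted p = 0.00154). All ripe values were far below the green ones. Of 10 beta-galactosidases 1 was lower, Solyc01g110000.2 (BGAL3) at -5.43 ± 0.59 (median -0.73). Of 38 genes for the synthesis of cellulose, hemicellulose and pectin 1 was higher, Solyc02g089120.2 (COB) at 2.68 ± 0.37 (adjusted p = 0.00186), and 1 lower (median -0.57). The lower one, Solyc07g005840.2 (MUR10, a cellulose synthase of secondary walls), had 228 reads in green and 2 in ripe fruit, a pooled ratio of 60.8 (95% counting interval 16.6 to 505). This gene and XTR4 lost their call in 7 of the 8 fits without 1 library, with adjusted p up to 0.0323. In the phenylpropanoid and lignin list 1 of 23 was higher and 4 lower (median -0.32). The gain, Solyc03g117870.2 (AT4CL2, which activates cinnamic acids), was at 2.37 ± 0.41 (adjusted p = 0.00428), and it is also in the flavonoid list of the study. The losses included Solyc01g107590.2 (CAD5, of lignin synthesis) at -4.23 ± 0.39. The 49 genes of that list in the table summed to 627 to 920 CPM in green and 1104 to 1513 CPM in ripe libraries. In the flavonoid list the other called gene of 13 was Solyc05g010320.2 (TT5, a chalcone isomerase), with 285 reads in green and 3 in ripe fruit (list median -0.03).

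The cuticle list, 28 tested genes for the waxes and cutin of the fruit skin, had 1 gain and 8 losses (median -1.93). These were 3.57% and 28.6% of the list, beside 1.67% and 5.86% of all tested genes. Solyc01g088400.2 (CER1, which makes alkanes of wax, an octadecanal decarbonylase in the study) had 6.33, 1.66, 28.2 and 5.6 CPM in green and 539, 333, 1606 and 791 CPM in ripe libraries. It stood apart in every ripe library (6.66 ± 0.69, adjusted p = 0.000836). At 7 and 14 DAF it was between 21.1 and 174 CPM, above its level at 28 DAF. The cutin enzymes went down. Solyc09g014350.2 (GPAT6, an acyltransferase) had 294, 49.3, 244 and 101 CPM in green and 0.529, 0, 0 and 3.33 CPM in ripe libraries (-7.33 ± 0.99, adjusted p = 0.00173), the acyl-CoA synthetase Solyc01g109180.2 (LRD2, known as LACS2) was at -5.68 ± 0.63, and the P450 Solyc05g055400.2 (CYP77A4) was at -6.37 ± 0.72. These 4 genes kept their call in all 8 fits without 1 library.

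Of 26 cell cycle and replication genes 3 were lower (11.5%, beside 5.86% of all tested genes) and none higher (median -0.69). Solyc01g107730.2 (CYCD3;2, a D-type cyclin that starts division) had 42.4, 9, 66.5 and 60.1 CPM in green and 1 read over the ripe group, a pooled ratio of 415 (95% counting interval 74.2 to 16402, adjusted p = 0.000844). It was higher still at 7 DAF, with 184 CPM in AC and 233 CPM in HG6-61. Solyc02g090680.2 (KRP1, an inhibitor of cyclin-dependent kinases) fell with it (-4.30 ± 0.90, adjusted p = 0.00957). Of 9 tubulins 1 was lower (11.1%), Solyc04g081490.2 (TUB1) at -3.21 ± 0.43 (median -1.63). Among 16 genes of DNA methylation and demethylation the chromomethylase Solyc08g005400.2 (CMT2, -3.08 ± 0.63, adjusted p = 0.00838) and the demethylase Solyc09g009080.2 (DME, -2.35 ± 0.49, adjusted p = 0.00977) were lower (12.5%, median -0.39). Both lost the call in 7 of the 8 fits without 1 library, and KRP1 in 6, with adjusted p up to 0.0403. In aquaporins, the water channels, 1 of 8 was higher and 1 lower (median -0.82). The gain, Solyc10g083880.1 (TIP1;1), had no read in any library up to 28 DAF and 12.7, 16.9, 16.5 and 15.7 CPM in ripe libraries, at least 85.7-fold higher against a floor of 3 reads (adjusted p = 0.00116).

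Of 39 ascorbic acid genes of the study 4 were lower (10.3%, beside 5.86% of all tested genes) and none higher (median -0.50). Solyc03g096730.2 (VTC1, which makes the GDP-mannose that leads to ascorbic acid) had 185, 54.7, 348 and 151 CPM in green and 14.3, 9.75, 25.5 and 43.2 CPM in ripe libraries (-2.86 ± 0.45, adjusted p = 0.00299). The ascorbate oxidase relative Solyc11g062440.1 (AT5G21105) fell by 4.96 ± 0.42 on the log2 scale and kept its call without any 1 library, while VTC1 lost it in 4 of the 8 fits. Of 43 UDP-glycosyltransferases, which attach sugars to small molecules, 7 were lower (16.3%, beside 5.86% of all tested genes) and none higher (median -0.40). A relative outside that list, Solyc10g079980.1 (AT2G36780), was among the steepest losses of all. It had 104, 78.2, 37.6 and 29.3 CPM in green and no read in ripe fruit, at least 159-fold lower (adjusted p = 0.000561). Of 30 proteasome subunits none was called by edgeR or DESeq2 (9 had an unadjusted p under 0.05, median 0.37), and Solyc06g083620.2 (RPT2a), the one with the highest mean level, had a log2 fold change of -0.06 ± 0.24. Of 11 genes of the methyl and methionine cycles edgeR called none and DESeq2 1 as higher (5 had an unadjusted p under 0.05, median 0.14). The member with the highest mean level, Solyc09g092380.2 (SAHH1, which recycles S-adenosylhomocysteine), had 1019.7, 2180.0, 1481 and 1196 CPM in green and 12152, 2080.3, 25946 and 7367 CPM in ripe libraries. Only AC at 49 DAF overlapped the green range, and the gene missed the threshold (3.1 ± 0.74, adjusted p = 0.0162).

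**Figure D4:**
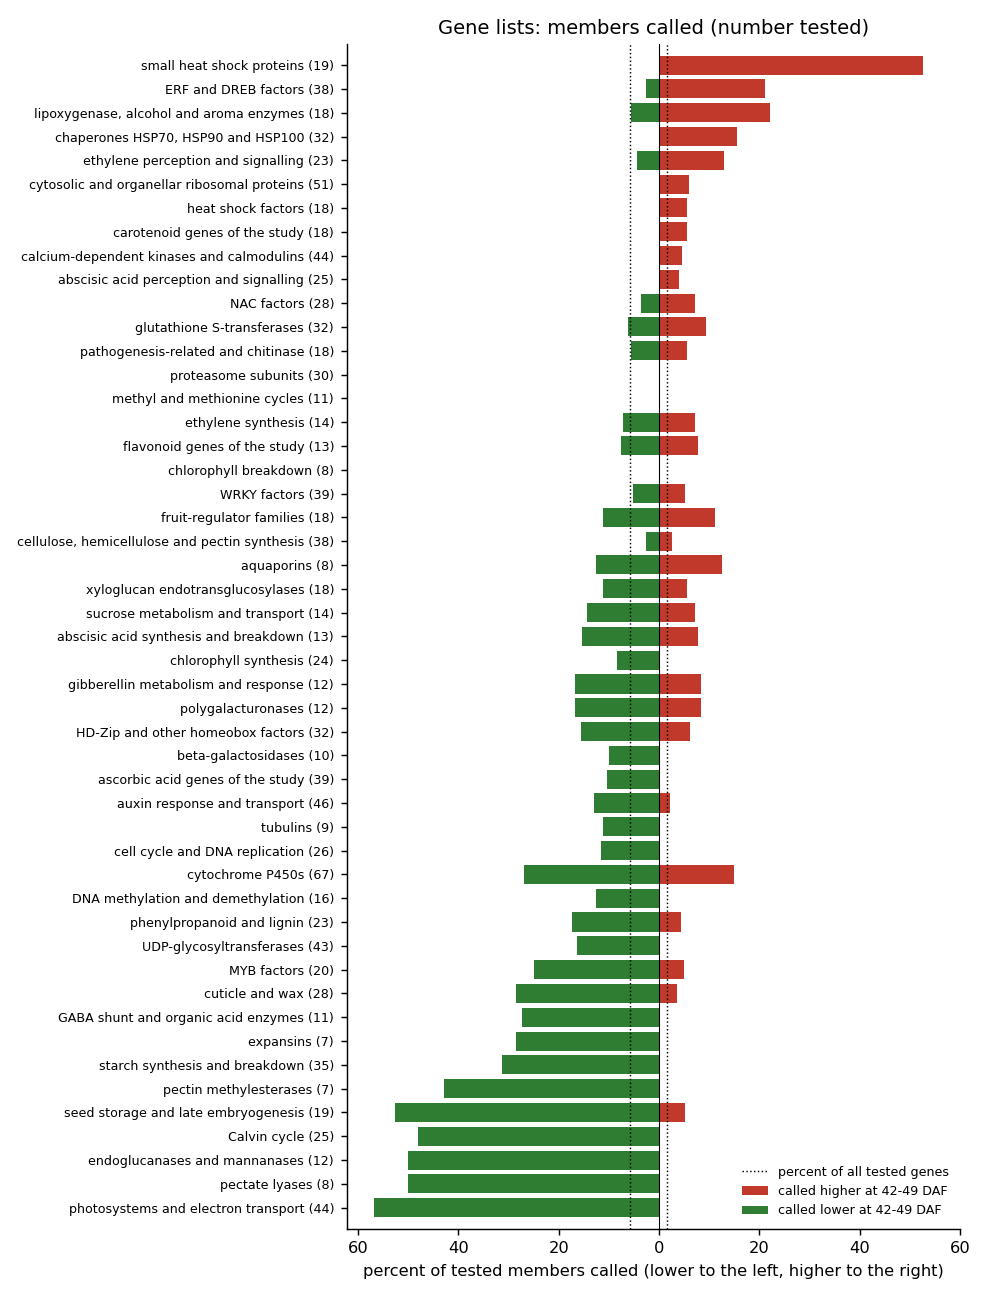
Percent of the tested members of each of the 49 gene lists called higher (red bars, to the right) and lower (green bars, to the left) in ripe fruit, with the number of tested members in brackets. Small heat shock proteins lead the gains at 52.6%, and photosystem genes the losses at 56.8%, beside 1.67% and 5.86% of all tested genes.

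The largest losses in reads were seed genes and 1 gene without an Arabidopsis relative. Solyc05g054090.2, for which the table gives no relative, had 7367, 3367, 25592 and 8429 CPM in green and 66.6, 131, 61.3 and 114 CPM in ripe libraries (-6.46 ± 0.76, adjusted p = 0.00112). It had been between 13360.1 and 32994 CPM at 7 and 14 DAF. Next came 4 genes closest to CRU1, a 12S cruciferin, a storage protein of seeds. Solyc03g005580.2 of this group had 8038, 5115, 1845 and 4460.0 CPM in green and 3.7, 5.63, 19.8 and 10.5 CPM in ripe libraries (-8.77 ± 0.81, adjusted p = 0.000514), and Solyc09g025210.2 had 8274, 7116, 2082 and 5553 CPM and 48.6, 46.9, 67 and 56.5 CPM (-6.42 ± 0.54, adjusted p = 0.000421). Solyc07g064210.2 (SESA4, a seed storage albumin) had 387, 373, 37.1 and 137 CPM in green fruit and a single read in the ripe group. Reads were assigned only where they mapped to 1 place, so the levels of genes that share sequence are less certain, and whether these 4 do was not examined.

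The study describes its samples as pericarp, the flesh of the fruit, and the labels as fruit, but the green libraries held many reads of genes known from seeds. Of 28 genes of the seed storage and late embryogenesis list 19 were tested, and 10 were lower and 1 higher (median -2.37). Their summed level was 31387, 30394, 7508 and 23197 CPM in green and 1941, 1604, 1694 and 1081 CPM in ripe libraries, with no overlap. At 7 and 14 DAF it was 24.8, 598, 9.19 and 41.9 CPM, and at 35 DAF 6189.6 CPM in AC and 8497 CPM in HG6-61. The 4 cruciferin genes made up most of the sum in the green libraries. In the ripe libraries 4 genes of the list had no read, none of them among the tested genes. The gain was Solyc06g048840.2 (GEA6, known as EM6, a late embryogenesis protein), with 7.31, 31.3, 2.39 and 16.3 CPM in green and 154, 89.3, 189 and 102 CPM in ripe libraries (3.5 ± 0.69, adjusted p = 0.00724). This gene lost its call in 7 of the 8 fits without 1 library, with adjusted p up to 0.0244. In bulk fruit, fewer cells of a type and less RNA per cell cannot be told apart. The part of seed RNA in the other losses was not tested. Some of the steepest losses were also lower at 7 and 14 DAF than at 21 and 28 DAF, though not all with the course of the seed list. They include Solyc06g048440.2 (AT5G06640, an extensin-like wall protein), with 2074, 1678, 449 and 1164 CPM in green and 0.529, 0, 1.89 and 0.475 CPM in ripe libraries, and Solyc10g054900.1 (PRP4, a proline-rich wall protein), with 91.1, 2733, 24.4 and 620 CPM and 0, 0, 2.36 and 0 CPM. The second rose mostly between 21 and 28 DAF. It lost its call in 5 of the 8 fits without 1 library, with adjusted p up to 0.0333.

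The other steep losses had no seed name. Solyc09g098290.2 (AT3G28040, a receptor-like kinase with leucine-rich repeats) had 61.9, 17.8, 103 and 58.6 CPM in green and no read in ripe libraries, at least 192-fold lower (adjusted p = 0.00181). It was present at 77.1 to 113 CPM at 7 and 14 DAF. Solyc07g061800.2 (AT1G17100, of the SOUL heme-binding family) had 315, 10.2, 48.3 and 88.3 CPM in green and a single read in ripe fruit, a pooled ratio of 714 (95% counting interval 128 to 28236). Solyc03g116220.1, with no Arabidopsis relative in the table, had 219, 140, 5.9 and 12.5 CPM in green and a single read in ripe fruit (601, interval 108 to 23751). Its green level was higher in both AC libraries than in those of HG6-61. Solyc07g061800.2 lost its call in 3 of the 8 fits without 1 library (adjusted p up to 0.0197), and Solyc09g098290.2 and Solyc03g116220.1 in none.

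Most of the called genes also separated ripe fruit from the youngest fruit. Of the 244 genes called higher, 204 (83.6%) had all 4 ripe libraries above all 8 libraries from 7 to 28 DAF, which held for 806 of all 14595 tested genes. Of the 855 called lower, 735 (86%) had all ripe libraries below all 8, which held for 2291 of all tested genes. For the counts that follow, the share over all tested genes was not taken, so they only describe the called genes. For 548 of the 855 the highest library at 7 or 14 DAF was above the highest green one, as for the D-type cyclin Solyc01g107730.2 and the photosystem gene Solyc10g006230.2. For 70 all young libraries were below all green ones, as for the cruciferins, and 7 of the 244 gains were higher in every library at 7 and 14 DAF than in every green one. Within the ripe group, 96 of the genes called higher had a higher level at 42 than at 49 DAF in both cultivars, as did the polygalacturonase Solyc10g080210.1, and 63 had the reverse, as did the osmotin Solyc08g080640.1.

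The cultivars were compared for the size of the change. No gene passed edgeR's test of the cultivar by stage term at an adjusted p under 0.01, and none under 0.05, while 656 of 14595 genes (4.49%) had an unadjusted p under 0.05. DESeq2 called 6 and edgeR without a filter on low counts 2. Each cultivar had 2 libraries in each group, and the missing calls do not show that the cultivars changed alike. The gene with the lowest p, Solyc02g062390.2, had 14.1, 57.6, 1.28 and 0.509 CPM in green and 84.6, 223, 502 and 278 CPM in ripe libraries, so it was higher in green AC than in green HG6-61 fruit (adjusted p of the term 0.99992). Of the next 3, Solyc02g078150.2, Solyc10g084970.1 and Solyc02g092460.2 (BT4), each was lower in both ripe than in both green HG6-61 libraries. In AC the first of them was higher in both ripe libraries, and the ranges of the others overlapped. Within a cultivar alone, edgeR called no gene (smallest adjusted p 0.0571 in AC and 0.0103 in HG6-61). At an unadjusted p under 0.05 there were 3592 genes in AC and 4266 in HG6-61. All 1098 called genes that could be tested in AC went the same way there, 1090 of them with an unadjusted p under 0.05, and all 1097 in HG6-61 did, all under 0.05. Both sets of libraries are part of the main comparison, so this describes them and is no independent test.

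At 35 DAF, which the comparison did not use, AC was nearer to ripe fruit than HG6-61. On the scale of log2(CPM + 1), 75.8% of the genes called higher and 69.9% of those called lower had passed the midpoint between the green and ripe means of the cultivar in AC, against 29.1% and 31.9% in HG6-61. The share of losses past the midpoint in AC was 54.3% with log2(CPM + 0.1). The 244 genes called higher took 7.55% of the counts in AC at 35 DAF and 1.33% in HG6-61. In the green libraries they took 0.624% to 1.64%, the most in AC at 28 DAF, and in the ripe libraries 5.05% to 7.96%. The 855 genes called lower took 1.71% of the counts in AC at 35 DAF and 4.79% in HG6-61, against 7.13% to 11% in green and 0.359% to 0.629% in ripe libraries. Phytoene synthase 1 (Solyc03g031860.2) was at 6288 CPM in AC and 91.7 CPM in HG6-61 at this age, the ACC synthase Solyc01g095080.2 at 1344 and 22.6 CPM, and the polygalacturonase Solyc10g080210.1 at 1427 and 3.42 CPM. With 1 library per cultivar at this age, these values have no error and no test.

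**Figure D5:**
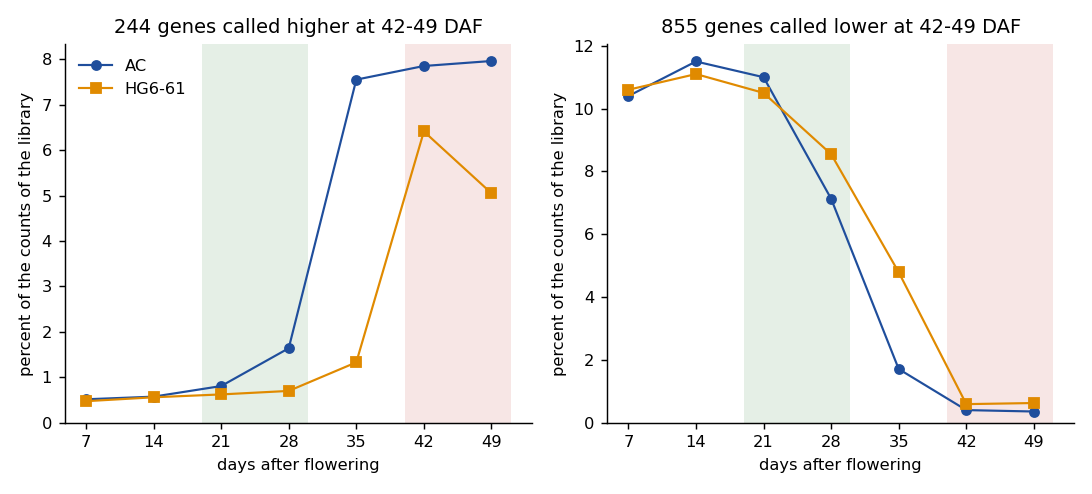
Percent of the counts of each library that fell on the 244 genes called higher (left) and the 855 called lower (right), by days after flowering, with 1 point per library, AC in blue circles, HG6-61 in orange squares and the green and ripe stages shaded. At 35 DAF the gains take 7.55% in AC and 1.33% in HG6-61, and the losses 1.71% and 4.79%.

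Fewer genes were detected in ripe fruit. With every library thinned to 1891668 counts, at least 1 read was found for 20868, 20233, 20658 and 20318 genes in the green libraries and for 17346, 17805, 18418 and 17793 in the ripe ones. The means were 20519.2 ± 296.3 and 17840.5 ± 440.3 (SD, n = 4), a difference of -2678.8 with no overlap. A two-sided exact permutation test within cultivars gave p = 0.0556, the smallest that the 36 arrangements allow, so the design cannot pass 0.05. With more than 10 reads as the minimum, the difference was -2154.8.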

How the data were processed

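RNA-seq of tomato fruit from AC and HG6-61 was deposited as 1 table of read counts per gene for 14 libraries. Per the labels and the study, the authors aligned reads with TopHat to the SL2.40 assembly, allowed up to 2 mismatches and kept reads mapped to 1 place, and whether the counting used strand is not given in the sources used here. The deposited count columns were used, and the deposited RPKM columns, which the authors scaled by gene length and by sequencing depth, served only 1 alternative. The 8 libraries at 21, 28, 42 and 49 DAF were fitted with edgeR 4.0.16 in R 4.3.3 (TMM scaling, filterByExpr, quasi-likelihood test, cultivar as a block), and a gene was called where the adjusted p was below 0.01 and the log2 fold change exceeded 2 in size. CPM is reads per 1000000 counted reads. P-values were adjusted over all 14595 tested genes. Pooled ratios have exact 95% intervals that, like the floor of 3 reads over a group, cover counting error only. Gene lists were built by the Arabidopsis symbol or locus in the table, or taken from the study.

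Named genes were the 8 steepest rises and 8 steepest falls (groups apart, mean of at least 50 CPM in the higher group), the 6 largest gains and losses in mean CPM among called genes, up to 3 called members per list and direction by difference in CPM (the member with the highest mean CPM where none was called), the carotenoid, ethylene and chlorophyll breakdown genes, and the 4 lowest p of the cultivar by stage term. The markers expansin A4 and an ACC oxidase were added as checks of the labels. Members and lists were chosen with earlier results of these data known. Alternatives were DESeq2 1.42.0, limma 3.58.1 on log2(RPKM + pseudocount), other scalings, filters, thresholds, thinned counts and stages, and leaving out each library. No library was a duplicate of another (chi-square per gene 17.2 to 65.1 between libraries). The scripts were tested on simulated data.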

Additional observations from a re-analysis of the deposited data

Results flagged for a closer look

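The highest or lowest of the 4 libraries of a group was set against the others. This was done for 66 genes, 3 summed lists, the shares of reads and the number of detected genes. Of 139 groups, 25 (18%) held a library far from the rest. The cutoff was set to flag about 1 in 20 groups if libraries differed by chance alone. That rate is no yardstick here, because each group mixed ages and cultivars and many genes were picked for large differences. Where the other libraries of a group had no read, the remaining one stood apart by construction. The count is therefore only a description. In green fruit the AC library at 28 DAF was the high one in 13 of the 14 cases. It had 0.711 CPM of Solyc03g112040.1 (CYP71A25), 23 CPM of Solyc00g060810.2 (MLP43), 4.03 CPM of Solyc01g099040.2, 1635 CPM of Solyc06g059740.2 (ATADH1, next 925 CPM), 708 CPM of Solyc03g031860.2 (phytoene synthase 1, next 138 CPM), 105 CPM of Solyc03g113930.1 (ATHSP22.0, next 18.6 CPM) and 853 CPM of Solyc01g100370.2 (AT3G62550, next 254 CPM). It also had 181 CPM of Solyc09g015000.2 (HSP17.4, next 64.5 CPM), 14.4 CPM of Solyc12g088220.1 (BCAT-2, next 0.319 CPM) and 18.2 CPM of Solyc08g080640.1 (OSM34, next 3.06 CPM). The same library had 678 CPM of the pectate lyase gene Solyc03g111690.2 (next 94.5 CPM), 134 CPM of Solyc06g051800.2 (expansin A4, next 5.36 CPM) and 1346 CPM of the ACC oxidase gene Solyc07g049530.2 (next 220 CPM). The other case was AC at 21 DAF, with 0 CPM of Solyc08g066240.2 (emb1075).

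In ripe fruit the libraries that stood apart were spread over both cultivars and ages. AC at 42 DAF had 1130.2 CPM of Solyc00g060810.2 (next 285 CPM) and 5566 CPM of the invertase gene Solyc03g083910.2 (next 4089.5 CPM), and HG6-61 at 49 DAF had 355 CPM of Solyc06g069430.2 (FUL, next 241 CPM). Among genes lower in ripe fruit, residual reads were left in HG6-61 at 42 DAF for Solyc10g006230.2 (LHCA2, 37.7 CPM, next 7.13 CPM) and Solyc10g054900.1 (PRP4, 2.36 CPM), and in HG6-61 at 49 DAF for Solyc09g014350.2 (GPAT6, 3.33 CPM, next 0.529 CPM). For 5 further genes the value was a single read, namely 0.529 CPM of Solyc07g064210.2 (SESA4) in AC at 42 DAF, 0.375 CPM of Solyc03g116220.1 in AC at 49 DAF, and 0.475 CPM of each of Solyc05g005550.2 (PG2), Solyc07g061800.2 and Solyc01g107730.2 (CYCD3;2) in HG6-61 at 49 DAF.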

How the results depend on the processing

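The 1099 calls moved by over 1.5 times with DESeq2 (1708, 393 higher and 1315 lower), with no filter on low counts (2248, 560 and 1688), at 49 against 28 DAF (555, 206 and 349), at 42 against 21 DAF (2449, 646 and 1803), within AC or HG6-61 alone (0 in each), at an adjusted p under 0.05 with a log2 fold change beyond 1 (3107, 1094 and 2013) and when the fold limit was tested itself (611, 132 and 479). Without 1 library in turn the count ran from 413 (HG6-61 at 21 DAF) to 1168 (AC at 28 DAF). Within 1.5 times lay RLE scaling (1095), library totals (1227, an alternative chosen after seeing the data, with the median of all genes at -0.25), a stricter filter (1198), no cultivar block (1038), thinned counts (1053), limma on RPKM (1339), all 14 libraries in 1 fit (1611) and no fold limit (1496). Losses outnumbered gains wherever any gene was called. The cultivar by stage term gave 0 genes, 6 with DESeq2 and 2 with no filter, and 0 in each fit without 1 library. The share past the midpoint at 35 DAF moved for losses to 54.3% (log2(CPM + 0.1)) and 59.9% (TMM-scaled CPM) in AC, and to 25.3% (log2(CPM + 0.1)) in HG6-61. The difference in detected genes was -2871.2 to -2513.9 without 1 library.

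Of the 153 called genes among those named by rule, 65 kept their call without any 1 library, 88 lost it at least once and 68 in 4 or more of 8 fits, with adjusted p up to 0.0454, and all 153 kept their sign in every alternative run. No paired analysis was possible because each cultivar and age had 1 library and the replicate numbers only follow accession order; cultivar is a block in the fit itself. Groups with few reads limit the ratios: 167 of the genes called lower had at most 3 reads in ripe fruit, and 11 called higher at most 3 in green fruit.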
